A study of Mus musculus with 18 samples.

Results

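Macrophages of implanted scaffolds that carried transcripts of Gpnmb, Spp1 and Mmp12 but few of complement C1q were described in 6 droplet libraries, 1167 cells of 7082 kept scaffold cells (16.5%). The cells were chosen from their own counts. A cell entered when at least 2 of the 3 genes were detected with 3 or more unique molecular identifiers (UMIs, each standing for 1 captured transcript) in sum. It also had to hold fewer than 3 UMIs of C1qa, C1qb and C1qc together and under 5% of its UMIs from S100a8 and S100a9, the subunits of calprotectin. The levels of these 8 genes are therefore a description of the rule and carry no test. The kept cells held 200 or more detected genes and under 20% mitochondrial UMIs. A barcode found in several libraries of a day was assigned to the library in which it had the most UMIs, provided these were 5 or more times those of any other, and was dropped otherwise.

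The study profiled lungs, spleens and biomaterial scaffolds of female BALB/cJ mice by Drop-seq, which pairs single cells with barcoded beads in droplets. Mice of the tumour group carried 4T1-tdTomato-luc2, a labelled mouse mammary carcinoma line, of which 2000000 cells were placed in a mammary fat pad 7, 14 or 21 days before collection; they were 9, 10 or 11 weeks old at those times. Healthy mice of the same strain, sex, ages and days had received no tumour cells, and every mouse used here carried a scaffold. Each status and day gave 1 scaffold library, and as the number of animals in it is not stated, p-values measure the spread between libraries only.

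Gpnmb is a transmembrane glycoprotein of macrophages that take up lipid, debris or foreign material, and its transcription is known to depend on MITF and TFE factors. Spp1 encodes osteopontin, a secreted ligand of integrins and Cd44, and Mmp12 encodes macrophage elastase, which cleaves elastin. Trem2, a lipid-sensing receptor, and Lpl, lipoprotein lipase, accompany these genes in lipid-associated macrophages. Macrophages that gather on implanted materials are known to fuse into multinucleated giant cells with genes shared with osteoclasts, such as Dcstamp, Acp5 and Ctsk. C1q and Mrc1 are usual marks of resident-like macrophages.

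The promoters of the 3 genes that chose the cells are shown because the rule selects cells that hold these genes together; each window runs from 250 bases before to 50 bases after an annotated start, is on the + strand of GRCm38.p6 and is taken from RefSeq. Gpnmb lies at chr6:49036518-49058182, Spp1 at chr5:104435111-104441053 and Mmp12 at chr9:7344397-7360461, all protein-coding. The windows are chr6:49036268-49036567, chr5:104434861-104435160 and chr9:7347124-7347423, the last at the second of the annotated Mmp12 starts. Capitals mark matches, on either strand, to the E-box CACGTG, the M-box core CATGTG or the AP-1 site TGACTCA.
Gpnmb: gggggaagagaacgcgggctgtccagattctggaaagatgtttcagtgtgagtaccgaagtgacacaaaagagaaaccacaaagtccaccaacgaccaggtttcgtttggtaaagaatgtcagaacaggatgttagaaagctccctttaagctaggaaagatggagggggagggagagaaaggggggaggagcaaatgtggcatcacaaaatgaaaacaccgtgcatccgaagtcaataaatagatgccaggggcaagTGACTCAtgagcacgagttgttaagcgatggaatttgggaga
Spp1: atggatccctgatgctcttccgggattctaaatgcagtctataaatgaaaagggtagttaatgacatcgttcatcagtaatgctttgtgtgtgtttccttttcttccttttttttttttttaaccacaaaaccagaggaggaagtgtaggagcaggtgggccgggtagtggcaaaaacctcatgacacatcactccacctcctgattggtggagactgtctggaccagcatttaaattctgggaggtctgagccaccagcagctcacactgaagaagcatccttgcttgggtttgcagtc
Mmp12: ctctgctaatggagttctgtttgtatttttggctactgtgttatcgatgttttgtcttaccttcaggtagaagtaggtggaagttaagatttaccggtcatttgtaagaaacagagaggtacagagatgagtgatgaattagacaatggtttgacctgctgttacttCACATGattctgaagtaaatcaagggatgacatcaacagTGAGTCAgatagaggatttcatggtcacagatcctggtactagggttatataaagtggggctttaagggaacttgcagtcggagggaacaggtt
Gpnmb held TGACTCA 9 bases after the start, and the Mmp12 window held CATGTG on the reverse strand at -83 and TGACTCA on the reverse strand at -44. No match was found in the Spp1 window, and none in the windows of the other annotated starts of Spp1 and Mmp12. Of all 32851 promoter windows 7.15% held CACGTG, 14.2% held CATGTG and 5.20% held TGACTCA. A match describes letters and not bound factors. None of the 3 printed windows held CACGTG. Among the gene lists counted further below it was found in 4 of 16 matched windows of vacuolar ATPase genes, 6 of 21 of lysosome and cathepsin genes, 2 of 18 of lipid-associated genes, 0 of 20 of osteoclast and fusion genes and 0 of 14 of iron and oxidative stress genes.

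All 3 genes were detected together in 517 of the 1167 cells (44.3%). Spp1 with Mmp12 but no Gpnmb was seen in 407 cells (34.9%), Gpnmb with Spp1 in 161 (13.8%) and Gpnmb with Mmp12 in 82 (7.03%). Single cells reached 339 UMIs of Gpnmb, 659 of Spp1 and 323 of Mmp12, so the rule took in cells from a few copies up to many. Summed per library, Gpnmb ranged from 1320 to 2678 CPM (counts per 1000000 UMIs), Spp1 from 4505 to 7221 CPM and Mmp12 from 4391 to 12447 CPM. At the edge of the rule 80 cells had a sum of exactly 3 UMIs and 67 a sum of 4, against 1020 with 5 or more. Just outside were 68 cells with 2 of the genes at 1 UMI each and 509 with 1 gene only at 3 or more UMIs. Of the gated cells 838 had no C1q UMI, 215 had 1 and 114 had 2, and 64 cells that met the other limits lay just outside with 3.

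Neither Lpl nor Trem2 was used to choose the cells. Lpl was detected in 91.6% and Trem2 in 58.7% of them. At days 7, 14 and 21 Lpl stood at 6351, 6168 and 6162 CPM in healthy libraries and at 5141, 7140 and 6867 CPM in the tumour libraries. Trem2 stood at 459, 787 and 596 CPM in healthy and at 590, 448 and 578 CPM in tumour libraries. For both genes the ranges of the 2 groups overlapped. The general macrophage genes, led by Lyz2, summed to between 20954 and 41155 CPM, and none of the 11 was at 0. The levels were compared with 2 sets of cells from the same libraries: 1690 complement-high cells with 3 or more C1q UMIs, and 3179 other scaffold cells, which were neither gated, complement-high nor high in calprotectin. Mean Lpl was 6305 CPM in gated, 4261 CPM in complement-high and 1298 CPM in other cells. The general macrophage genes summed to 21849 to 42115 CPM in complement-high and 17560 to 26019 CPM in other cells. The gated sum was above that of other cells in 6 of 6 libraries, but the ranges overlapped, so this sum alone does not single out macrophages. Against complement-high cells 3 of the 11 genes were higher and 6 lower, beside 9.45% higher and 9.88% lower over all genes tested.

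**Figure D1:**
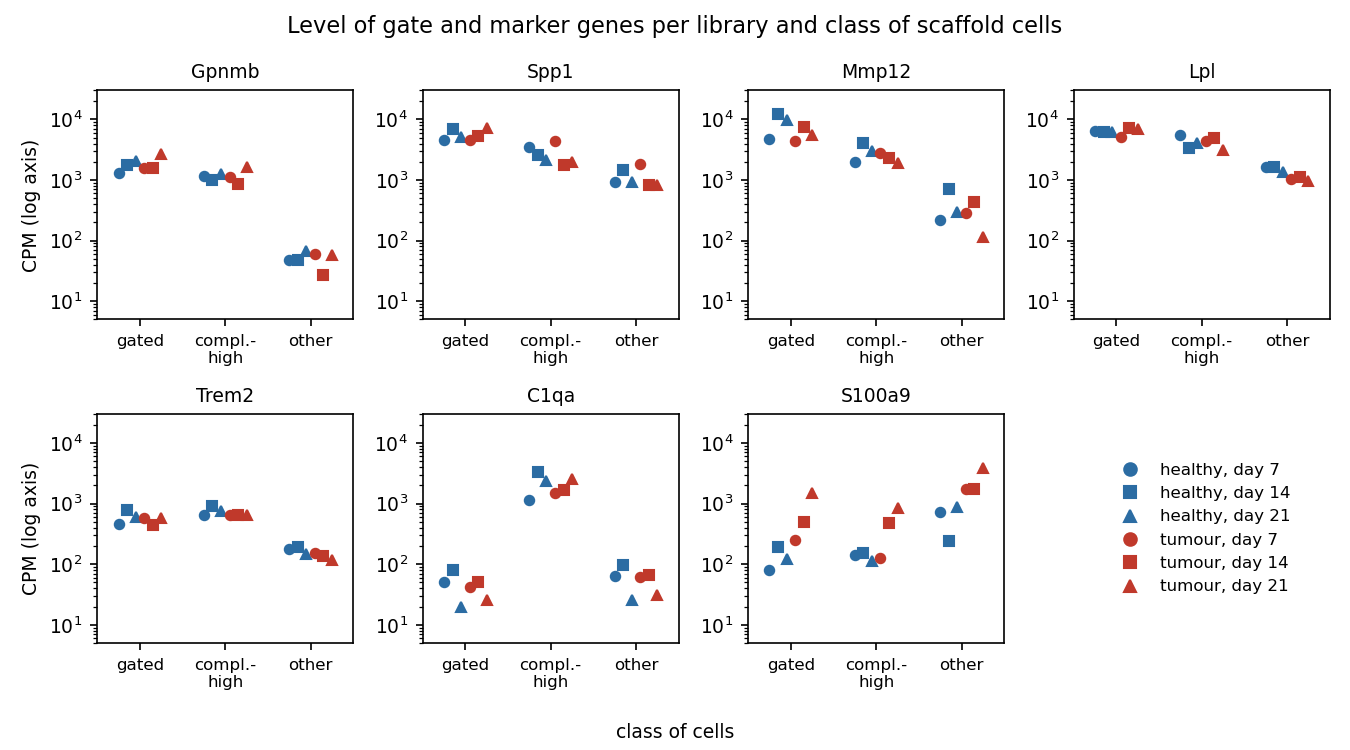
Each point is 1 scaffold library, with its level (CPM, log axis) of 3 genes that chose the cells, of Lpl and Trem2, and of C1qa and S100a9, whose low counts were required, in gated, complement-high and other cells. Mean Gpnmb was 1827 CPM in gated, 1176 CPM in complement-high and 51.0 CPM in other cells, while Trem2 reached 711 CPM in complement-high cells against 576 CPM in gated cells.

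Traces of other cells were few but not absent. Among scaffold cells with 3 or more UMIs of the lymphoid genes Cd3d, Cd3e, Cd3g, Cd79a, Cd79b, Ms4a1, Nkg7 and Trbc2, 1 of 216 met the limits on Gpnmb, Spp1 and Mmp12 (0.463%, median depth 1016 UMIs), and among cells high in calprotectin 7 of 1046 did (0.669%, median 915 UMIs), against a median of 1862 UMIs in gated cells. Adipoq, Plin1, Cidec and Cfd (fat cells), Emcn and Cldn5 (endothelium), Ly6g (neutrophils), Siglech (plasmacytoid dendritic cells), Timd4 (resident macrophages), Cd3e and Cd3g (T cells) were at 0 UMIs in all gated cells, which allows up to 0.748 CPM at 3 counts. Other genes of most of these lists were present: the neutrophil list held 616 UMIs with 10 of its 11 genes seen, the complement macrophage list 5465 UMIs with 12 of 13 seen, and the plasmacytoid dendritic cell list 310 UMIs, of which 298 were Tcf4. The erythroid list held 222 UMIs and reached 220 CPM in healthy day 14, and the epithelial or tumour list held 125 UMIs and reached 127 CPM in tumour day 14. The part of these transcripts in the results was not tested. Il7r, usually a lymphoid receptor, made up 95.1% of the UMIs of the T and NK cell list and was found in 427 gated cells (36.6%), none of which held 3 or more UMIs of those lymphoid genes. A single cell of the tumour day 7 library held 442 of all 447 Cpa3 UMIs and 386 of 388 Mcpt4 UMIs, both genes of mast cells. No doublets were removed, and 177 gated cells carried a barcode that another library of the day also held. Between 2.11% and 47.3% of a scaffold library's barcodes were shared in this way, the most in the healthy day 21 library.

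Depth was uneven. The scaffold libraries held 2068925 to 4530115 deposited UMIs, and the gated cells of a library held 427115 to 1162909. The median per gated cell was 1448, 1411 and 3024 UMIs in the healthy libraries of days 7, 14 and 21 and 1811, 2219 and 3022 UMIs in the tumour libraries. The day 21 cells were thus the deepest in both groups.

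Gated cells were a sizeable share of every scaffold library, with or without a tumour. They made up 18.1% (exact binomial 95% interval 15.4 to 21.0%), 21.2% (19.2 to 23.2%) and 12.8% (11.0 to 14.8%) of the kept cells in the healthy libraries of days 7, 14 and 21. In the tumour libraries the shares were 21.4% (19.3 to 23.7%), 18.7% (16.1 to 21.7%) and 6.88% (5.56 to 8.38%). The intervals cover counting error only. The lowest share in each group was that of day 21, and the groups overlapped. Group means were 17.4% ± 4.22 and 15.7% ± 7.75 (SD, n = 3 each), a difference of -1.67 points (2-sided exact permutation p = 0.9, where 0.1 is the smallest p that 3 against 3 libraries allow).

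The libraries also differed in neutrophil-rich cells. Cells with 5% or more calprotectin UMIs made up 4.69%, 0.857% and 11.3% of the healthy and 10.9%, 17.6% and 43.5% of the tumour libraries at days 7, 14 and 21. Among the remaining cells the gated share was 19.0%, 21.4% and 14.5% in healthy and 24.1%, 22.7% and 12.2% in tumour libraries. On that denominator the difference was 1.40 points in the other direction (exact permutation p = 0.7). Over the 5811 cells with 500 or more UMIs, each thinned to 500, the gated share was 16.5% ± 5.15 in healthy and 11.8% ± 6.49 in tumour libraries (SD, n = 3 each). The difference was -4.72 points (exact permutation p = 0.4), over fewer cells than the shares above. Without the tumour day 21 library the difference over all kept cells was 2.73 points, and without the healthy day 14 library 0.238 points. The direction of this difference is therefore not settled by these libraries.

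**Figure D2:**
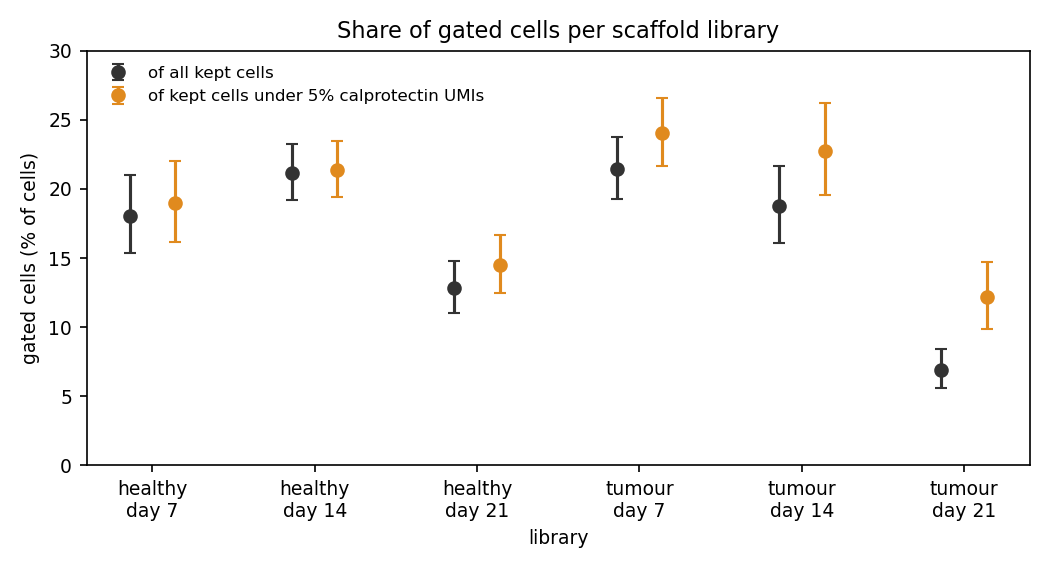
Share of gated cells (% of cells, y axis) in each scaffold library (x axis), over all kept cells and over kept cells under 5% calprotectin UMIs; bars are exact binomial 95% intervals. The tumour day 21 library has the lowest share on both denominators, 6.88% and 12.2%.

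The same rule applied to the other tissues found few cells. In lung 32 of 1892 kept cells of healthy mice (1.69%) and 10 of 4213 of tumour-bearing mice (0.237%) met it. In spleen it was met by 0 of 1493 and 1 of 5081 cells. These counts pool 3 libraries each and were not tested. The median depth of the kept cells of these libraries, 386 to 1115 UMIs, lay below that of the gated scaffold cells.

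Set against the complement-high macrophages of the same libraries, gated cells held more transcripts of Mt3, Slc7a11 and Penk, at mean levels of 123, 78.3 and 106 CPM against 14.3, 13.9 and 19.8 CPM. They held fewer of Ccl8, Sepp1 and Mrc1, at 58.3, 369 and 107 CPM against 2135, 3624 and 916 CPM. The contrast is made by the rule itself, so its calls describe what accompanies the genes that chose the cells and are no independent test. In counts summed per library and class, edgeR's quasi-likelihood test with the library as a block put 1307 of 6760 genes past an adjusted p of 0.05 (19.3%), 639 higher (9.45%) and 668 lower (9.88%) in gated cells. Without that block it put 417 past it, and on cells of 500 or more UMIs thinned to 500 it put 357. Of the complement-high cells 576 also met the limits on Gpnmb, Spp1 and Mmp12. Over all libraries the complement-high cells were also deeper, with a median of 2360 UMIs against 1862 UMIs. This did not hold in each library: in healthy days 14 and 21 their medians were 1206 and 2615 UMIs, below the 1411 and 3024 UMIs of gated cells.

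Mt3, a metallothionein that binds zinc and copper, had the largest positive difference among genes with 1 sign in all 6 libraries. It stood at 74.0, 122 and 77.3 CPM in healthy gated cells of days 7, 14 and 21 and at 86.0, 37.7 and 342 CPM in tumour gated cells. In complement-high cells it stood at 44.0, 22.7 and 4.89 CPM and at 5.33, 1.41 and 7.51 CPM, a log2 difference of 3.05 ± 0.40 (SE). Gated cells were higher in each library, most in tumour day 21, where 1 cell held 62 of 146 Mt3 UMIs. In all 106 gated cells (9.08%) held an Mt3 UMI.

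Slc7a11, the cystine and glutamate exchanger that feeds glutathione synthesis, stood at 79.5, 42.6 and 123 CPM in healthy and at 76.5, 77.3 and 70.2 CPM in tumour gated cells. Its complement-high levels were 24.2, 8.38 and 13.8 CPM and 13.1, 15.5 and 8.58 CPM, so that the 2 classes did not overlap (log2 difference 2.47 ± 0.19). Penk, which encodes the precursor of enkephalin peptides, was at 49.2 to 171 CPM in gated and 7.51 to 37.5 CPM in complement-high cells (2.30 ± 0.20). Again no library of one class reached the other.

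The 9 further genes of the upper end lay between 2.02 and 2.23 on the log2 scale. They were Ass1 (argininosuccinate synthase, 2.23 ± 0.24), Hp (haptoglobin, 2.20 ± 0.27), Car2 (carbonic anhydrase of osteoclasts, 2.20 ± 0.23), Olr1 (the oxidised LDL receptor, 2.16 ± 0.21), Met (the hepatocyte growth factor receptor, 2.12 ± 0.20), Cd2 (an adhesion receptor, 2.10 ± 0.23), Mgst2 (a microsomal glutathione transferase, 2.09 ± 0.37), Mmp19 (a matrix metalloproteinase, 2.04 ± 0.22) and Slpi (an inhibitor of leukocyte proteases, 2.02 ± 0.28). Not all of them set the gated cells apart from the remaining scaffold cells. Against those, Ass1, Hp, Olr1, Cd2 and Slpi had log2 differences of -0.050, -0.11, -0.088, -0.45 and -0.96, and Slc7a11 and Car2 of 0.09 and 0.23. Of these 7 genes Slpi passed as lower than in the other cells, and the remaining 6 did not pass. Penk, Mmp19, Mgst2, Mt3 and Met were higher in gated cells on that contrast too, at 2.46, 1.74, 1.74, 1.07 and 0.91.

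At the lower end stood genes that resident-like macrophages are known for. Ccl8, a chemokine, was at 109, 38.3 and 63.9 CPM in healthy and at 92.9, 33.7 and 11.7 CPM in tumour gated cells, against 1201 to 3678 CPM in complement-high cells (log2 difference -5.20 ± 0.24). Sepp1, the selenium carrier selenoprotein P, averaged 369 against 3624 CPM (-3.25 ± 0.18), and Mrc1, the mannose receptor, 107 against 916 CPM (-3.11 ± 0.24). The classes did not overlap for any of the 3 genes. Ednrb, the endothelin B receptor, had the largest difference, at 0 to 2.58 CPM in gated and 16.2 to 121 CPM in complement-high cells (-5.55 ± 0.34).

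Gpr34, Cbr2, Nxpe5, Gas6, Nrcam, Stab1, Clec10a and Cp made up the rest of this end, from -4.19 ± 0.31 for Gpr34 to -3.11 ± 0.41 for Cp. Gas6 is a ligand that bridges apoptotic cells to Mertk, Stab1 a scavenger receptor, Clec10a a galactose lectin and Cp ceruloplasmin. All 10 tested genes of the complement macrophage marker list were lower in gated cells, with a median log2 difference of -2.82 against 0.00 over all genes tested. C1q itself is in the rule. Against the other scaffold cells Ccl8, Gas6, Sepp1 and Mrc1 had log2 differences of -0.50, -0.87, -0.35 and -0.33, none of which passed.

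**Figure D3:**
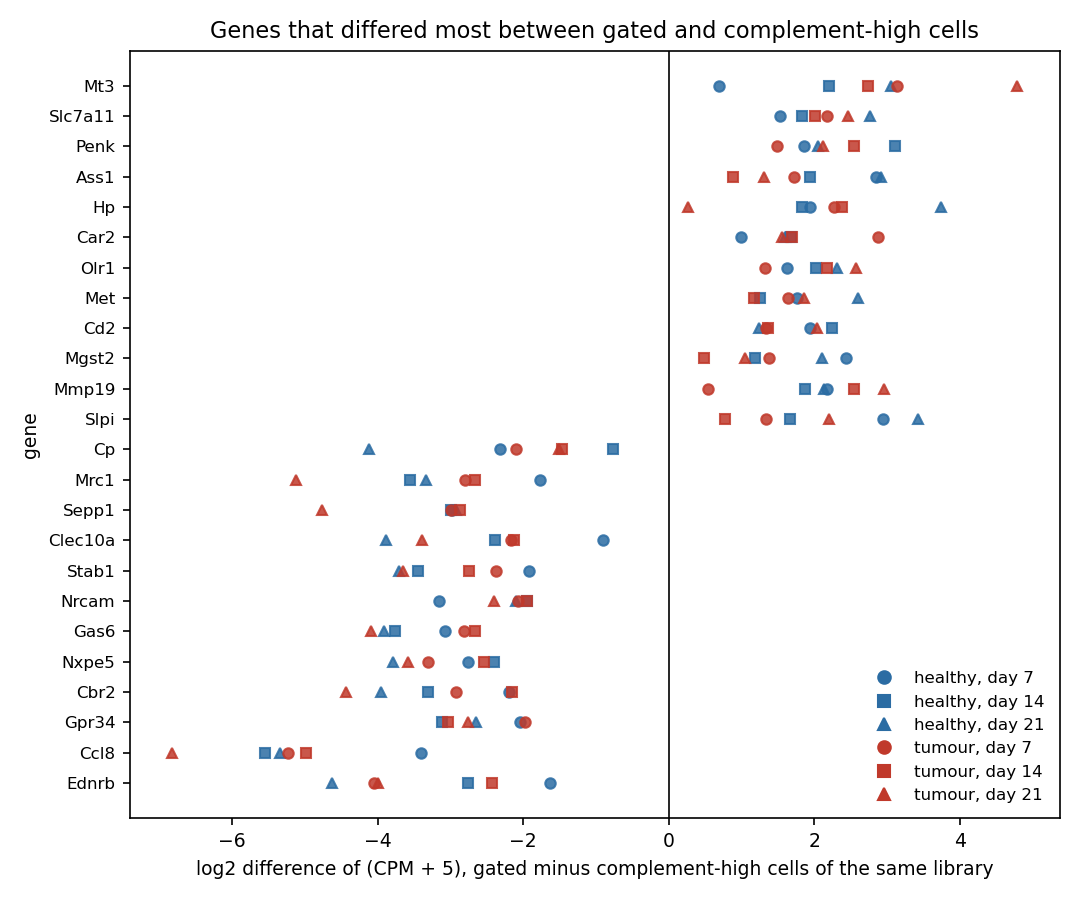
For each of 24 genes (y axis), the log2 difference of CPM + 5 between gated and complement-high cells (x axis), 1 point per library. All points of the upper 12 genes lie above 0 and all of the lower 12 below it, with Sepp1 near -2.9 in 5 libraries and at -4.76 in tumour day 21.

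The lipid-associated genes split. Of 19 tested, 6 were higher and 6 lower in gated cells (median -0.15). Over all 6760 genes tested 9.45% were higher and 9.88% lower, and each list count below is to be read beside these shares. Cd9, a tetraspanin, was the highest at 1.22 ± 0.12 (mean 1314 against 556 CPM), followed by Lgals3 (galectin-3, 0.59 ± 0.10), Lpl (0.56 ± 0.10), Cd36 (fatty acid uptake, 0.36 ± 0.10), Lipa (lysosomal lipase, 0.28 ± 0.08) and Cd63 (0.22 ± 0.07). Apoe, the carrier of cholesterol, was lower at 2859 to 6254 CPM against 11557 to 39176 CPM (-2.20 ± 0.09). Fabp4, Pparg, Abca1, Trem2 and Tyrobp were lower as well, the largest of these Fabp4 at -1.21 ± 0.15.

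Trem2 is the marker whose place depended on the comparison. Against complement-high cells its log2 difference was -0.34 ± 0.07 (edgeR adjusted p = 0.00386, and 0.35 without the library block). With the 576 complement-high cells that met the other limits left out it was 0.040 (edgeR adjusted p = 0.775), and against other scaffold cells it was 1.95. Trem2 was thus high in both macrophage classes relative to other scaffold cells. Lpl lost its call without the block (edgeR adjusted p = 0.0699).

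Of 12 tested genes of osteoclasts and of fused macrophages, Car2, Dcstamp (a fusion receptor, 1.80 ± 0.38), Nfatc1 (the osteoclast transcription factor, 1.31 ± 0.18), Acp5 (tartrate-resistant acid phosphatase, 1.05 ± 0.16) and Cd44 (the osteopontin and hyaluronan receptor, 0.74 ± 0.10) were higher and Cd47 was lower at -0.41 ± 0.08, with a list median of 0.26. Dcstamp stood at 22.2, 39.8 and 55.0 CPM in healthy and at 20.6, 31.7 and 51.5 CPM in tumour gated cells, against 28.7, 10.8 and 12.2 CPM and 3.39, 8.46 and 1.07 CPM in complement-high cells. Dcstamp was higher in 5 of 6 libraries, the exception being healthy day 7. In other scaffold cells Dcstamp stood at 20.4, 25.9 and 12.0 CPM in healthy and at 10.7, 23.1 and 1.41 CPM in tumour libraries, below gated cells in each library. The list as a whole did not set gated cells apart from other scaffold cells. Its 16 genes summed to 1233 to 2128 CPM in gated cells and to 1457 to 2205 CPM in other scaffold cells. Acp5 stood at 337, 285 and 327 CPM in healthy gated cells of days 7, 14 and 21, below the 725, 440 and 468 CPM of other scaffold cells. In tumour libraries it stood at 605, 254 and 634 CPM against 309, 369 and 221 CPM. Multinucleated cells were not identified as such in these data.

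Lysosome genes differed in both directions. Among 24 tested lysosome and cathepsin genes 11 were lower and 2 higher, with a median of -0.18, beside 9.88% lower and 9.45% higher over all genes tested. The 2 were Ctsk, the collagen-cleaving cathepsin of osteoclasts (1.36 ± 0.18, at 1447 to 2564 CPM against 309 to 1032 CPM, with no overlap), and Cstb, a cathepsin inhibitor (0.51 ± 0.09). Ctsc at -1.27 ± 0.15 and Lgmn at -0.98 ± 0.09 led the lower ones. The proton pump that acidifies lysosomes had more genes on the higher side: 8 of 17 vacuolar ATPase genes were higher and Atp6v0a1 was lower at -0.52 ± 0.08 (median 0.24). The largest of the 8 was Atp6v0e at 0.62 ± 0.09.

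Proteases and their surface receptor were higher in 4 cases of 11 and lower for Timp2 (-0.70 ± 0.11). Mmp9, a gelatinase of osteoclasts and neutrophils, stood at 109, 124 and 78.8 CPM in healthy and at 307, 75.3 and 236 CPM in tumour gated cells, against 127, 31.1 and 22.8 CPM and 6.79, 12.7 and 4.29 CPM in complement-high cells (2.45 ± 0.51). It was higher in 5 of 6 libraries, all but healthy day 7. Mmp19, Plaur (the urokinase receptor, 1.19 ± 0.17) and Mmp14 (a membrane-bound collagenase, 0.73 ± 0.10) were the other 3. In other scaffold cells Mmp9 stood at 353, 312 and 143 CPM in healthy and at 111, 174 and 124 CPM in tumour libraries. Plaur and Mmp14 stood at 26.7 to 62.7 and 180 to 337 CPM there. Their gated levels were 45.6 to 146 and 196 to 340 CPM.

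Of 13 tested genes of iron storage and oxidative stress 8 were higher in gated cells and 1 was lower, with a list median of 0.72. After Slc7a11 came Prdx1 (a peroxiredoxin, 1.47 ± 0.09, at 3806 to 9742 CPM against 1045 to 3760 CPM), Srxn1 (sulfiredoxin, 1.41 ± 0.17), Gclm (a subunit of the first enzyme of glutathione synthesis, 1.28 ± 0.13) and Txnrd1 (thioredoxin reductase, 1.10 ± 0.11). The lower gene was Hmox1, haem oxygenase, at -0.62 ± 0.12. Of 21 glycolysis and hypoxia genes 11 were higher and Ndrg1 was lower (median 0.36), led by the glucose transporter Slc2a1 (1.32 ± 0.18) and the lactate exporter Slc16a3 (1.23 ± 0.18). Slc16a3 stood at 44.4 to 99.4 CPM in gated and at 68.1 to 141 CPM in other scaffold cells. Slc2a1 stood at 19.8 to 55.0 CPM in gated and at 13.6 to 34.1 CPM in other scaffold cells.

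Surface receptors differed in both directions. Of 15 phagocytic receptors 8 were higher, among them Clec4e, Clec4n and Clec4d (lectins that bind microbial and cell debris, 1.34 ± 0.16, 1.32 ± 0.14 and 0.94 ± 0.12) and the integrins Itgb2, Itgax and Itgam (1.12 ± 0.11, 1.04 ± 0.10 and 0.68 ± 0.08). The 5 lower ones were the Fc receptors Fcgr1, Fcgr4, Fcgr2b and Fcgr3 and the apoptotic cell receptor Mertk, from -1.73 ± 0.14 for Fcgr1 to -0.66 ± 0.09 for Fcgr3. In other scaffold cells Clec4e, Clec4n and Clec4d stood at 369 to 1314, 152 to 559 and 177 to 495 CPM. Their gated levels were 298 to 777, 218 to 479 and 242 to 432 CPM. Itgb2, Itgax and Itgam stood at 132 to 281, 28.1 to 55.6 and 263 to 472 CPM in other cells. Their gated levels were 388 to 808, 197 to 316 and 454 to 801 CPM. Among 10 growth factor and osteopontin receptor genes Csf1 (1.60 ± 0.38), Csf2rb (0.63 ± 0.12), Itga5 and Csf2ra were higher, and Csf1r (-0.61 ± 0.08), Itgb5 and Sdc4 lower. Csf1 stood at 19.8 to 74.9 CPM in gated and at 47.7 to 240 CPM in other scaffold cells. Csf2rb stood at 118 to 294 CPM in gated and at 70.8 to 163 CPM in other scaffold cells.

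Chemokine and MHC class II genes had more members on the lower side. Of 18 chemokine and cytokine genes 9 were lower, among them Ccl12, Ccl7, Ccl4, Ccl2 and Ccl3 besides Ccl8, and 3 were higher: Cxcl3 (a neutrophil attractant, 3.35 ± 0.44), Il1rn (the interleukin-1 receptor antagonist, 0.79 ± 0.10) and Ccl9 (0.46 ± 0.08). Over all genes tested 9.88% were lower and 9.45% higher. In other scaffold cells Cxcl3, Il1rn and Ccl9 stood at 10.7 to 119, 181 to 592 and 352 to 813 CPM. Their gated levels were 0 to 121, 451 to 886 and 525 to 1810 CPM. Of 7 MHC class II genes 5 were lower and none higher (median -1.54), with H2-Aa at 136 to 581 CPM against 622 to 2456 CPM. Fn1, fibronectin, was at 642 to 1783 CPM in gated and 139 to 349 CPM in complement-high cells (1.97 ± 0.11). It leads the monocyte list, of which 3 of 8 tested genes were higher (Fn1, Hp and Vcan) and 2 lower (F13a1 and Ms4a4c). In other scaffold cells Fn1 stood at 491 to 1269 CPM. The 10 genes of the monocyte list summed to 1237 to 2550 CPM in gated and to 2651 to 4718 CPM in other scaffold cells.

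Of 7 alternative activation genes Ccl24, an eosinophil attractant, was higher (1.22 ± 0.34) and Mrc1, Il4ra, Arg1 and Socs3 were lower. The shares over all genes tested were 9.45% higher and 9.88% lower. In tumour day 14 Ccl24 was lower in gated than in complement-high cells, at 57.5 against 83.2 CPM. It stood at 57.5 to 513 CPM in gated and at 136 to 407 CPM in other scaffold cells. Arg1, arginase, was found in 18 gated cells, of which 1 held 47 of all 100 Arg1 UMIs. Of 14 genes induced by tissue dissociation 10 were lower in gated cells and none higher (median -0.55), led by Ier3 and Egr1. Whether handling had a part in other differences was not tested. None of 14 cell cycle genes passed, and 5 of 14 type I interferon genes were lower, Ifit3 the most at -1.64 ± 0.33.

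Within the gated cells the tumour went with few differences. Comparing tumour with healthy libraries with the day as a block, edgeR called 5 of 6167 genes (0.0811%), 3 higher (0.0486%) and 2 lower (0.0324%), with 171 at an unadjusted p under 0.05. DESeq2 called 2, and edgeR without the day block called 0. Of the 5, S100a9 belongs to the rule, which leaves Ifitm1 and Hist1h1e higher and Ly6a and Ccdc80 lower. Ifitm1, Ly6a and Ccdc80 were found in 43, 13 and 38 of the 1167 gated cells and Hist1h1e in 140.

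Ifitm1, an interferon-inducible membrane protein, stood at 1.85, 5.68 and 0 CPM in healthy and at 25.8, 37.7 and 63.2 CPM in tumour gated cells, with every tumour library above every healthy one. These are 5 UMIs among healthy and 76 among tumour cells, in 43 cells in all. The log2 difference was 3.94 ± 0.63 (edgeR adjusted p = 0.0280, 3 libraries each). It was 2.98 without the tumour day 21 library (edgeR adjusted p = 0.0746) and lost its call with a limit of 5 UMIs in the rule (edgeR adjusted p = 0.142). Other scaffold cells held 20.4, 20.4 and 40.6 CPM in healthy and 180, 157 and 399 CPM in tumour libraries, higher than gated cells in both groups. In complement-high cells it was at 4.49, 2.39 and 3.26 CPM and at 11.1, 45.1 and 46.1 CPM. Among gated cells with 500 or more UMIs, each thinned to 500, 0%, 0.334% and 0% of healthy and 1.36%, 1.47% and 4.17% of tumour cells held it, levels near that of 1 UMI.

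Neutrophil transcripts were also higher in tumour gated cells at each day. The neutrophil list, with Retnlg leading, summed to 20.3 to 86.6 CPM in healthy gated cells and to 54.2, 184 and 855 CPM in tumour gated cells of days 7, 14 and 21, with Ly6g at 0 in all. In other scaffold cells the list summed to 176 to 228 CPM in healthy and 519 to 2247 CPM in tumour libraries. S100a9 in gated cells, held under 5% together with S100a8 by the rule, was at 81.4, 195 and 120 CPM in healthy and 247, 490 and 1522 CPM in tumour libraries. The part of these transcripts in the difference of Ifitm1 was not tested.

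Hist1h1e, a linker histone made as cells copy their DNA, stood at 98.0, 28.4 and 32.7 CPM in healthy and at 285, 141 and 67.9 CPM in tumour gated cells, higher at each day but with overlapping ranges (log2 difference 1.64 ± 0.30, edgeR adjusted p = 0.0362). It was found in 140 gated cells, and in tumour day 14 a single cell held 28 of 71 UMIs. Without cells whose barcode another library shared the difference was 0.77 (edgeR adjusted p = 1.0). The call was also lost without healthy day 7, tumour day 7 or tumour day 14 (edgeR adjusted p = 0.0508, 0.0728 and 0.0546) and with DESeq2 (adjusted p = 0.054).

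Ly6a, also called Sca-1, stood at 37.0, 22.7 and 29.7 CPM in healthy and at 0, 5.95 and 0 CPM in tumour gated cells. These are 56 UMIs against 3, a ratio of 20.4 with a counting interval of 6.63 to 102, and they came from 13 cells (edgeR adjusted p = 0.0362). A single cell held all 20 UMIs of healthy day 7, and another 19 of 20 of healthy day 21. The counting interval takes each UMI as an independent draw, so it does not cover this spread between cells. Ccdc80, a secreted matrix protein of stromal and fat cells, stood at 75.8, 35.5 and 29.7 CPM in healthy and at 12.9, 1.98 and 9.37 CPM in tumour gated cells (log2 difference -2.54 ± 0.45, edgeR adjusted p = 0.0362). Of its 41 UMIs in healthy day 7, 35 lay in 1 cell, and 38 cells held it in all. Both calls were lost without healthy day 7 (edgeR adjusted p = 0.141 for Ly6a and 0.111 for Ccdc80) and without tumour day 7 (0.0897 and 0.0888).

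Fibroblast transcripts lay in some of the same cells. The fibroblast list summed to 18.5, 388 and 545 CPM in healthy gated cells of days 7, 14 and 21 and to 16.4 to 26.7 CPM in tumour gated cells, and none of its 8 genes was at 0. A single healthy day 21 cell held 132 of 142 Col3a1 UMIs. Of the 59 Ly6a UMIs, 33 lay in cells with a UMI of Col1a1, Col1a2, Col3a1 or Dcn. For Ccdc80, Ifitm1 and Hist1h1e 22 of 106, 19 of 81 and 40 of 527 UMIs lay in such cells. With all cells that held a UMI of these collagen genes or Dcn left out, Ifitm1, Ly6a and Ccdc80 were too low to be tested, and Hist1h1e differed by 1.99 (edgeR adjusted p = 0.0045).

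No gene of the MHC class II list and neither Il1b nor Ccl6 passed. The summed list and both genes were picked because the groups did not overlap. How many of the 6167 genes tested did the same was not counted. All 7 tested MHC class II genes had negative differences (median -1.03, against 0.00 over all genes tested), and none passed. Summed, the list stood at 2576, 4008 and 3658 CPM in healthy and at 2440, 2270 and 934 CPM in tumour gated cells, without overlap. In complement-high cells the sum was 3786, 16636 and 12487 CPM in healthy and 3548, 9961 and 4642 CPM in tumour libraries, with overlap. In other scaffold cells it was 5523, 14349 and 9712 CPM in healthy and 5133, 10167 and 3379 CPM in tumour libraries. There too it was lower at each day, with overlap. All 12 tested type I interferon genes were also below 0 (median -0.70), and none passed. Ifitm1, itself inducible by interferon, is not on that list.

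Il1b, interleukin-1 beta, stood at 64.7, 48.3 and 95.1 CPM in healthy and at 190, 139 and 178 CPM in tumour gated cells (log2 difference 1.32 ± 0.27, edgeR adjusted p = 0.0804). Ccl6 stood at 1284, 2074 and 1275 CPM in healthy and at 818, 726 and 450 CPM in tumour gated cells (-1.21 ± 0.24, edgeR adjusted p = 0.0804). The groups did not overlap for either gene, and neither passed. Both genes differed in the same direction at each day in other scaffold cells. Il1b stood there at 1234, 181 and 1828 CPM in healthy and at 2556, 682 and 2536 CPM in tumour libraries. Ccl6 stood there at 667, 1414 and 689 CPM and at 346, 428 and 621 CPM, also without overlap. The part of transcripts from other cells in the gated values was not tested. Lipid-associated, lysosome, vacuolar ATPase and osteoclast lists had medians between -0.10 and 0.09, with 0 genes called in each. Of the 3 genes of the rule, Gpnmb was higher in tumour libraries at 2 of 3 days, Spp1 at 1 and Mmp12 at none.

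**Figure D4:**
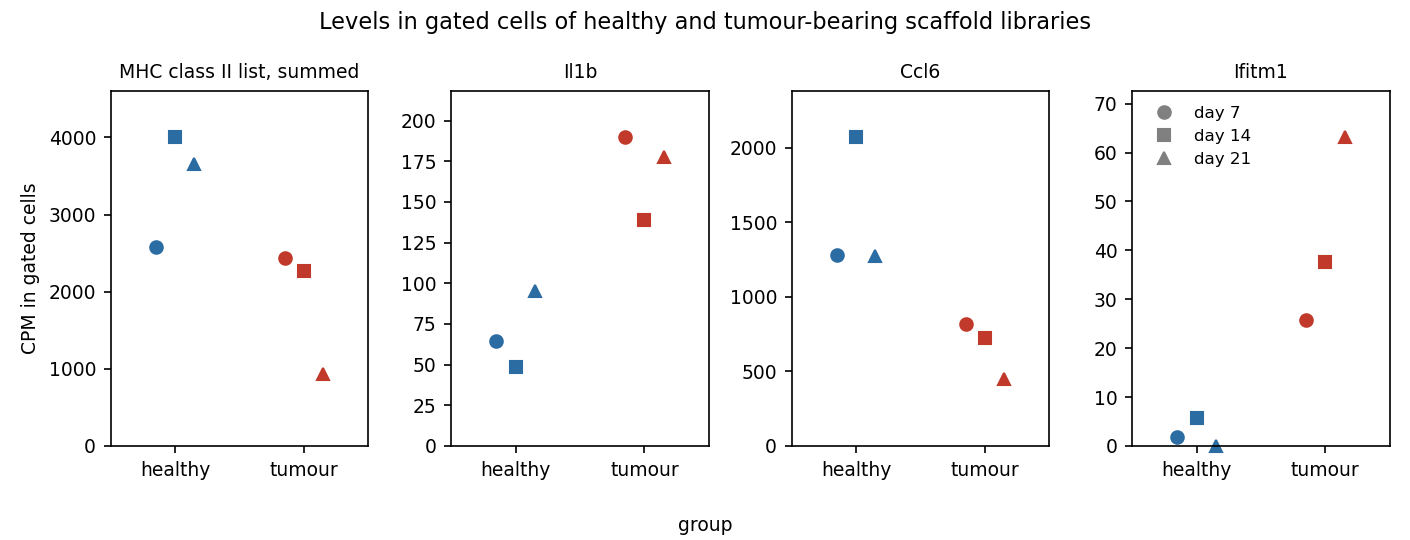
Level in gated cells (CPM, y axis) of the summed MHC class II list and of Il1b, Ccl6 and Ifitm1 in 3 healthy and 3 tumour libraries (x axis), 1 point per library with its day as shape. In each panel the healthy and tumour points do not overlap, as with Ifitm1 at most 5.68 CPM in healthy and at least 25.8 CPM in tumour libraries; only Ifitm1 was called.

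Whether the tumour difference was particular to gated cells was tested as the difference between it and the same difference in complement-high cells. Of 7601 genes edgeR called 0 (0.0%), with 286 at an unadjusted p under 0.05, and DESeq2 called 0. The smallest edgeR adjusted p was 0.111, for Mmp9, at 3.92 ± 0.63 on the log2 scale. In complement-high cells Mmp9 was lower in tumour libraries at each day, at 6.79, 12.7 and 4.29 CPM against 127, 31.1 and 22.8 CPM in healthy ones. In gated cells it was higher in tumour libraries at days 7 and 21 and lower at day 14, at 307, 236 and 75.3 CPM against 109, 78.8 and 124 CPM. The value for Mmp9 thus joins a fall in complement-high cells with a gated change of mixed direction. The difference between classes was 0.91 ± 0.92 for Ifitm1 (edgeR adjusted p = 1.0) and 1.48 ± 0.35 for Hist1h1e (edgeR adjusted p = 0.655).

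Cell cycle genes were highest in gated cells of day 7 and low at day 21 in both groups. In a linear fit over days with status as a term, edgeR called 2 of 6167 genes, both falling (0.0324%), with 249 at an unadjusted p under 0.05; DESeq2 called 14. Top2a, the topoisomerase that untangles replicated DNA, stood at 383, 68.2 and 31.2 CPM in healthy and at 323, 196 and 21.1 CPM in tumour gated cells of days 7, 14 and 21, a change of -1.79 ± 0.24 on the log2 scale per 7 days (edgeR adjusted p = 0.0118). Hist1h1b, another linker histone, stood at 152, 9.94 and 5.94 CPM and at 204, 101 and 4.68 CPM (-2.31 ± 0.33, edgeR adjusted p = 0.0118). Both genes fell from each day to the next in both groups.

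All 12 tested cell cycle genes had negative changes, with a median of -1.11 per 7 days against 0.00 over all genes tested, and Top2a was the 1 called. Next came Stmn1 (-1.33 ± 0.24), Cenpf (-1.20 ± 0.24) and Mki67 (-1.34 ± 0.29), with edgeR adjusted p of 0.0832, 0.107 and 0.123. A UMI of Top2a or Mki67 was found in 25.9%, 6.94% and 9.15% of healthy and in 21.7%, 15.1% and 8.89% of tumour gated cells. Among gated cells with 500 or more UMIs, each thinned to 500, the shares were 10.7%, 2.01% and 2.78% in healthy and 8.64%, 4.41% and 2.78% in tumour libraries. This left out shallower cells unevenly, 66 of 286 in tumour day 7 and 10 of 146 in tumour day 14. The day 7 libraries were highest in both readings and both groups. A day 7 maximum was not particular to gated cells. In complement-high cells the cell cycle list summed to 1766, 1026 and 1393 CPM in healthy and 2478, 956 and 643 CPM in tumour libraries. In other scaffold cells the sums were 1355, 1094 and 875 CPM and 2125, 1076 and 1297 CPM. Top2a stood in other cells at 184, 116 and 68.2 CPM in healthy and at 233, 52.4 and 43.6 CPM in tumour libraries.

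Single cells weighed on these values. In tumour day 14 a single cell held 40 of 99 Top2a UMIs, and in healthy day 7 another held 69 of 207. Without healthy day 7 the change per 7 days was -1.61 for Top2a (edgeR adjusted p = 0.0916) and -1.89 for Hist1h1b (0.123). With cells of shared barcodes left out Top2a changed by -1.14 (edgeR adjusted p = 0.298). Day and age of the mice cannot be told apart, nor can the day and its pair of libraries.

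**Figure D5:**
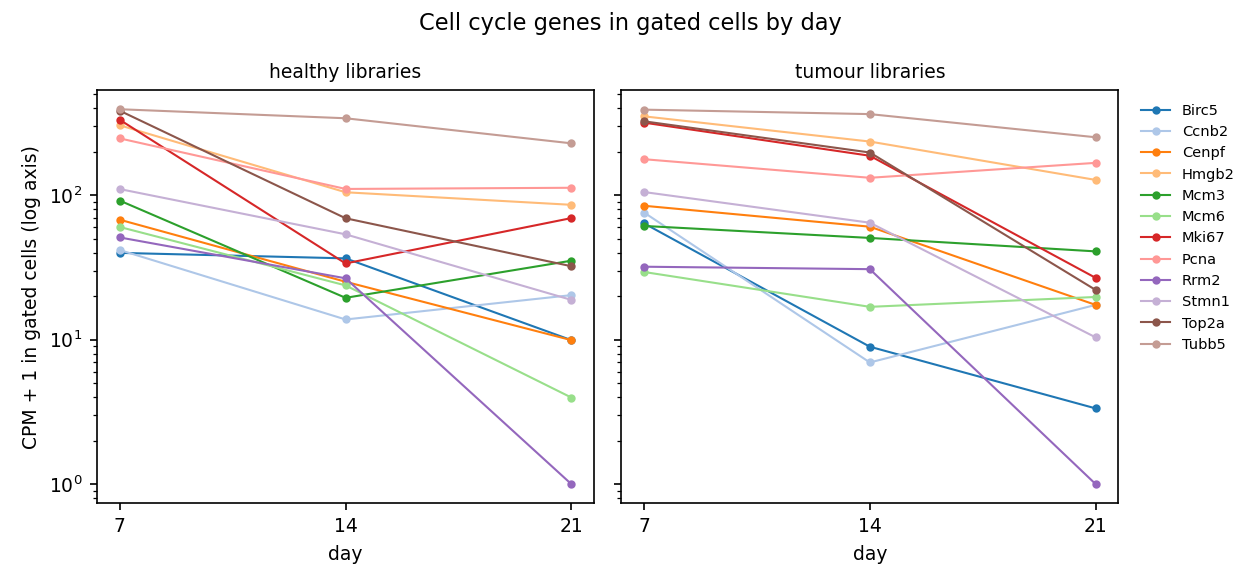
Level of 12 cell cycle genes in gated cells (CPM + 1, log axis) by day (x axis) in healthy and tumour libraries, 1 line per gene and 1 library per point. Top2a runs from 383 to 31.2 CPM in healthy and from 323 to 21.1 CPM in tumour libraries, while Pcna and Tubb5 change least.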

How the data were processed

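The authors deposited a table of unnormalised UMI counts (genes by barcodes) for each library; Seurat version 2 and the build mm10 are given per the submitters' processing notes, and about 1000 bead and cell pairs were amplified per library per the labels' protocols. Aligner, annotation and the way cells were called: not given in the sources used here. All 26397 barcodes of 18 libraries were read, 9129 of them from scaffolds; 19761 were kept, and the limits in the report were applied to 7082 scaffold cells. Counts were summed per library and class and tested with edgeR 4.0.16 (quasi-likelihood, TMM, filterByExpr, limma 3.58.1, R 4.3.3), Benjamini-Hochberg adjusted over all genes and called under 0.05; DESeq2 1.42.0 was an alternative. CPM is per 1000000 UMIs of the class in a library. The 8 genes of the rule were left out of the fits that compare gated with complement-high or other cells. They are in the fits of status and day within gated cells, but in no count of called list members. Shares were compared with exact permutation tests (scipy 1.17.1) with Clopper-Pearson 95% intervals. The scripts were tested on simulated data.

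The members and gene lists were chosen with earlier results of these data known. Of 370 list genes 369 were found in the files. Named were, between classes, the 12 largest called differences in each direction with 1 sign in all libraries; for status and day, the called genes; besides these the marker genes and members of counted lists. Tumour and healthy libraries of a day were treated as pairs: their deviations from group means correlated across genes at 0.269, 0.217 and 0.282, each over 0.1. Alternatives were other scalings and filters, 400 genes per cell, shared barcodes unassigned, a sum of 5 UMIs, no C1q limit, thinning to 500 UMIs (cells with fewer left out), barcodes alike in 11 bases merged and each library left out.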

Additional observations from a re-analysis of the deposited data

Results flagged for a closer look

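Sepp1, the selenoprotein P gene, stood further below complement-high cells in the tumour day 21 library than in the others. The log2 difference of CPM + 5 between gated and complement-high cells was -4.76 there and between -2.99 and -2.87 in the other 5 libraries. The gap to the nearest library made up 0.935 of the whole range, above Dixon's 95% critical value for 6 libraries, which chance alone passes in about 1 of 20 groups; 26 genes were examined in this way, so about 1 such gene is within what chance gives. In that library Sepp1 was at 229 CPM in gated cells, the lowest of the 6, and at 6362 CPM in complement-high cells, the highest of the 6.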

How the results depend on the processing

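Beside the alternatives fixed with the design, 4 were chosen after seeing the data: shared barcodes left out, cells with 1000 or more UMIs, cells with a collagen or Dcn UMI left out, and complement-high cells that met the other limits left out; barcodes alike in 11 bases merged was added for gene counts. The difference of the gated share was 1.40 points over cells with low calprotectin, -4.72 points after thinning to 500 UMIs, -0.163 points with shared barcodes unassigned and -4.55 to 2.73 points with single libraries left out, reversing at 0.238 and 2.73; with the day as a replicate block it was -1.67 points (exact sign flip p = 0.75, with 0.25 the smallest possible). Between classes 780 genes were called by DESeq2, 417 with no replicate block, 2090 against the other scaffold cells (624 of the 1307 among them, 502 with the same sign) and 357 after thinning; library totals alone gave 728 higher and 606 lower. Against the other cells Ass1, Hp, Olr1, Cd2 and Slpi turned to -0.050, -0.11, -0.088, -0.45 and -0.96, and Trem2 to 1.95, and to 0.040 with the double-positive complement-high cells left out. Of 444 alternative values of the 24 genes named there 433 kept direction and call, 6 lost the call and 5 reversed. For tumour against healthy 2 genes were called by DESeq2, 57 without a filter on low counts, 9 with 400 or more genes per cell, 0 with a sum of 5 or more UMIs, 10 with barcodes merged, 2 with shared barcodes left out, 10 with 1000 or more UMIs, 2 with collagen cells left out, 5 to 31 with single libraries left out and 0 with no replicate block. Of 61 values of its 4 named genes 42 kept their call. For the difference between classes 33 were called without the filter, 1 with a sum of 5 UMIs and 0 to 7 with single libraries left out. With day, 14 were called by DESeq2, 96 without the filter, 1 with a sum of 5 UMIs, 18 with collagen cells left out and 2 to 24 with single libraries left out; 27 of 31 values of its 2 genes kept their call. Why these counts moved was not tested. With 3 libraries a group, and with 90 to 346 gated cells a library, genes found in few cells are set by single cells.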

Other observations

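Gated cells with a Gpnmb UMI and the 407 without one differed in their other transcripts; this is a description, since Gpnmb is a gene of the rule. In cells with Gpnmb, Mfge8 (a bridge to apoptotic cells) stood at 99.7 to 305 CPM per library, against 0 to 34.6 CPM in cells without it. Fabp5 (a fatty acid binding protein) stood at 699.5 to 1010 CPM against 52.8 to 311 CPM, Ctsl (cathepsin L) at 4000.0 to 7452 CPM against 1497 to 2920 CPM, and Atp6v0d2 (an osteoclast proton pump subunit) at 941 to 1591 CPM against 257 to 657 CPM. For these 4 genes no library of one set reached the other.

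Other genes stood higher in cells without Gpnmb; like those above they were picked with their values known. Ccr2, the monocyte chemokine receptor, averaged 536 CPM in them against 155 CPM, Cd74 2797 against 1028 CPM, Fn1 1787 against 754 CPM, and Ccl24 774 against 160 CPM. The Ccl24 mean of cells without Gpnmb holds 2410 CPM from 12 cells of tumour day 21. The other libraries stood at 163 to 888 CPM. Median depth was 909 to 4074 UMIs in cells without and 1763 to 3144 UMIs in cells with Gpnmb; cells without it were the shallower ones in 5 of 6 libraries. The part of depth in these differences was not tested.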
